A study of Mus musculus with 7 samples.

Results

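The 10 genes described here encode fibril-forming collagen chains and proteins that fold, trim and crosslink them. They are the type I chains Col1a1 and Col1a2, the type III chain Col3a1, the type V chains Col5a1 and Col5a2, the type VIII chain Col8a1, the collagen chaperone Serpinh1, the prolyl hydroxylase subunit P4ha1, the crosslinking oxidase Lox and the propeptide protease Bmp1. They were chosen by name, and each was read from the array row that carries that 1 gene symbol. All 10 had a single such row among 19938 genes with a row of their own symbol, and all 10 were among the 12102 genes kept by a filter on low intensity.

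Collagen chains are made in the endoplasmic reticulum, where prolyl hydroxylase modifies their prolines and Serpinh1 holds the folded triple helix until export. Outside the cell Bmp1 cuts the C-terminal propeptide, fibrils assemble, and Lox starts the crosslinks that make them stable. In muscle, type I and type III collagen form most of the fibrils around fibres and bundles, type V chains take part in starting fibrils, and in wound repair type III is known to precede type I. Col8a1 does not form fibrils: type VIII is a short-chain collagen of networks, known from vessel walls, so the name fibrillar does not hold for that member.

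The samples came from the left plantaris, a fast calf muscle, of male C57BL/6J mice aged 5 months. All animals had spent 2 weeks in hind limb suspension, which unloads the hind limbs. The control group was taken at its end (d0), and the other groups after 1, 3, 5, 7, 10 and 14 days (d1 to d14) of regrowth. Muscle that was never suspended was not analysed here. RNA of 6 animals was pooled for 1 Mouse Gene 1.0 ST array per time point, which leaves a difference between 2 days without an error or a p-value. The comparisons of all 6 later days share the d0 array.

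The arrays had median intensities of 128.1 to 131.8, and Acta1, the skeletal muscle actin, had intensities of 19394 to 21180. The d0 array had the lowest mean rank correlation with the others (0.972, against 0.984 to 0.989). The median kept gene lay 0.05 to 0.10 above d0 on the log2 scale on the later days. An effect of suspension and a property of that array cannot be told apart, so values against d14 are given where they differ in kind. Of kept genes, 55.5% carried an identical intensity on 2 or more arrays, as did 4 of the 10 genes here, so their small differences between days are of limited use. In whole muscle, a change in the number of collagen-making cells and a change in RNA per cell cannot be told apart.

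Promoters are shown for a type I chain, the type III chain and the chaperone, because these 3 genes reached their highest intensity on 3 different days. Each runs from 250 bases before to 50 after the gene's start in RefSeq (GRCm38.p6), 5′ to 3′ on the gene's own strand. Col1a2 lies at chr6:4505368-4505667 on the plus strand, Col3a1 at chr1:45311288-45311587 on the plus strand and Serpinh1 at chr7:99353190-99353489 on the minus strand. Capitals mark matches to 3 short promoter motifs, each searched on both strands, and no match overlaps another. The motif called the TATA element here is TATAAA. A second element, bound by nuclear factor Y, is spelled CCAAT and is called the Y element. The third, bound by Sp1 and its relatives, is spelled GGGCGG and is called the Sp1 element.
Col1a2: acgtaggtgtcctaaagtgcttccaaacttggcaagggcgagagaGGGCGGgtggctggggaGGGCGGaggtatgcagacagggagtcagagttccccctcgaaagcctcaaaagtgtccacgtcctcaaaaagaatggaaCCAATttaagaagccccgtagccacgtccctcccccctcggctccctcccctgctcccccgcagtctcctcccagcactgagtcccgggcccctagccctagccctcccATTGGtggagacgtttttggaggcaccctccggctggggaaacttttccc
Col3a1: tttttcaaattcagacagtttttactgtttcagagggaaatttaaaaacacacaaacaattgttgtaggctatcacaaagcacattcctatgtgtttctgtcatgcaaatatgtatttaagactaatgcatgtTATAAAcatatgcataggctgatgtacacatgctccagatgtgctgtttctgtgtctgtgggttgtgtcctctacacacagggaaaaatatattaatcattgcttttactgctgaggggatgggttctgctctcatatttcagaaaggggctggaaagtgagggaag
Serpinh1: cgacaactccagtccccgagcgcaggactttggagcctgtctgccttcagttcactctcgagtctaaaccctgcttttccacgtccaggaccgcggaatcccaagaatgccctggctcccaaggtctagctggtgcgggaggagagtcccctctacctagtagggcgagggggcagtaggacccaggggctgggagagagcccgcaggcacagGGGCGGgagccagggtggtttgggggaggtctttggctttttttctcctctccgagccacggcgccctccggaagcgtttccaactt
The Col1a2 window held 2 Sp1 elements and 2 Y elements, the latter on opposite strands, and no TATA element. The Col3a1 window held 1 TATA element and neither other motif, and the Serpinh1 window 1 Sp1 element. Of 32851 promoter windows of this length, 13.6% held a TATA element, 37.4% a Y element and 35.7% an Sp1 element. The pairs of heat shock half-sites were searched as GAANNTTC, which was in 7.86% of windows, and as TTCNNGAA, which was in 8.52%. Neither was in any of the 6 windows available for these genes, those of Col5a1, Col8a1 and P4ha1 included. G and C made up 37.7% of the Col3a1 window, and 93.0% of all windows had more. They made up 61.0% of the Col1a2 window and 62.3% of that of Serpinh1, with a median of all windows of 52.7%. A match to such letters describes the window and not a bound site.

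The type I chains were low at the end of suspension and after 1 day, and high from day 5 on. Col1a1 had an intensity of 662 on the d0 array and 721 on d1, then 1111 on d3, 1335 on d5, 1392 on d7, 1663 on d10 and 1401 on d14. The d0 and d1 arrays were close to each other and every array from d3 on was above both, with d10 the highest. As log2 ratios to d0, d1 was 0.12, d3 0.75, d5 1.01, d7 1.07, d10 1.33 (2.51-fold) and d14 1.08. The step from d1 to d3 was 0.62, and 0.868% of kept genes made a step as large in either direction. Set against d14, Col1a1 was at -1.08 at d0 and -0.96 at d1, so its low level was shared by 2 arrays and did not rest on d0 alone.

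Col1a2, which combines with Col1a1 in the type I triple helix, had intensities of 707 on d0, 769 on d1, 1013 on d3, 1115 on d5, 1250 on d7, 1438 on d10 and 1234 on d14. Its order of days was that of Col1a1 except at d7 and d14, which differed by little in both genes. Its log2 ratios to d0 ran from 0.12 at d1, as in Col1a1, to 1.02 at d10, and were 0.66 at d5 where Col1a1 stood at 1.01. The 2 chains correlated across the 7 arrays with a Pearson r of 0.99. Of the 2105 kept genes with a log2 range of at least 0.5, Col1a2 was the gene most like Col1a1.

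Col3a1 took another course. Its intensity was 348 on d0, 454 on d1, 572 on d3, 617 on d5, 522 on d7, 516 on d10 and 512 on d14. It was highest at d5, and d7, d10 and d14 lay close together between d1 and d3. The log2 ratios to d0 were 0.38, 0.72, 0.83, 0.58, 0.57 and 0.56 from d1 to d14. At d1 Col3a1 had reached 46.5% of its highest log2 ratio, against 9.24% for Col1a1 and 11.9% for Col1a2. At d10, when both type I chains were highest, Col3a1 was at 68.7% of its own highest ratio.

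**Figure D1:**
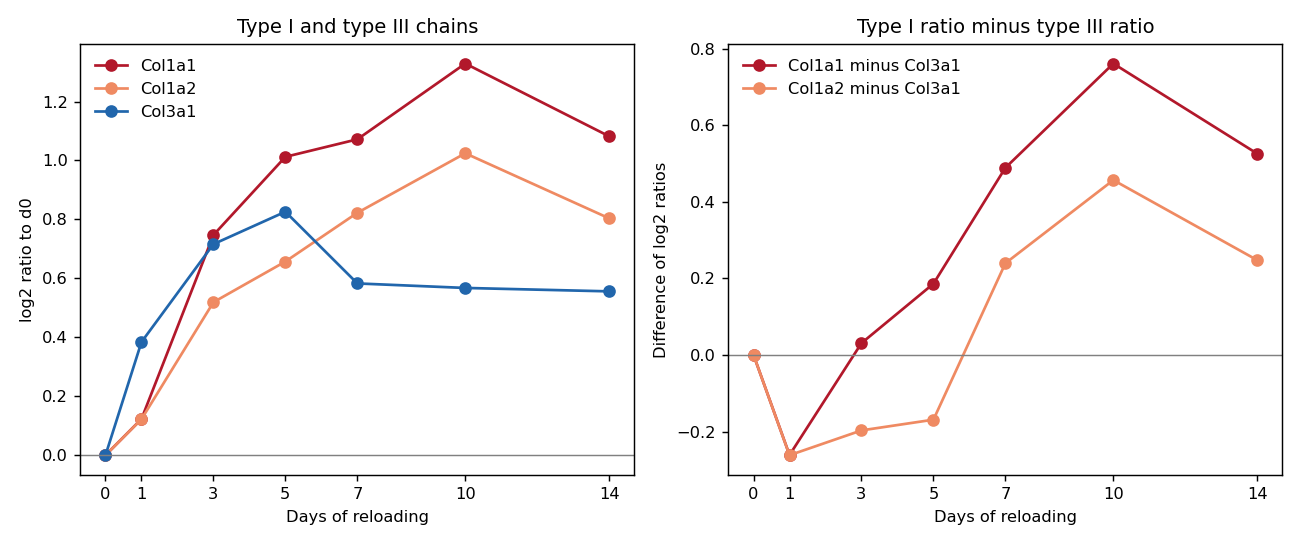
Left, log2 ratio to d0 of Col1a1, Col1a2 and Col3a1 against days of reloading, 1 pooled array per point; right, the type I ratio minus the Col3a1 ratio. Col3a1 is highest at d5 (0.83) and the type I chains at d10 (1.33 and 1.02), and both differences go from below 0 at d1 to their highest at d10.

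The timing of type I against type III was read from the difference of their log2 ratios to d0. For Col1a1 minus Col3a1 it was -0.26 on d1, 0.03 on d3, 0.19 on d5, 0.49 on d7, 0.76 on d10 and 0.53 on d14. Type I was thus behind type III at d1, level with it at d3 and 1.70-fold ahead at d10. For Col1a2 minus Col3a1 it was -0.26 on d1, -0.20 on d3, -0.17 on d5, 0.24 on d7, 0.46 on d10 and 0.25 on d14, so Col1a2 stayed behind Col3a1 until d5.

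Over the 7 arrays the Col1a1 difference correlated with log2(day + 1) at Pearson r 0.83 (exact permutation over 5040 orders, two-sided p = 0.0196, adjusted over the 2 relations 0.0393) and Spearman rho 0.93 (exact permutation p = 0.00675, adjusted 0.0135). Without d0 and d1, the arrays farthest from the median of log2(day + 1), r was 0.86 over 5 arrays (exact permutation p = 0.0667). For Col1a2 r was 0.64 (exact permutation p = 0.127, adjusted 0.127) and rho 0.75 (exact permutation p = 0.0663, adjusted 0.0663), and without d0 and d1 r was 0.83 (exact permutation p = 0.075). The pair of genes was posed with these values known, so the p-values are no independent evidence, and 1 pool per day leaves the spread between animals out.

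The type V chains were higher on every later day by small amounts. Col5a1 had intensities of 213, 238, 252, 273, 265, 249.8 and 260.1 from d0 to d14, and its highest log2 ratio was 0.36 at d5. Col5a2 had 162, 193.3, 193.5, 213, 194.0, 193.3 and 192.7, with 0.40 at d5 and 0.25 to 0.26 on the 5 other days. Both were lowest at d0 and highest on the d5 array, the day on which Col3a1 was highest too. Col5a2 is the neighbour of Col3a1 among protein-coding genes in RefSeq. On d5, 4.83% of kept genes had a higher ratio than Col5a2 and 6.62% a higher one than Col5a1, so neither stood far out.

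Col8a1 was highest at d3, before the other chains, and near its d0 level at d14. Its intensity was 191 on d0, 297 on d1, 407 on d3, 357 on d5, 252 on d7, 245 on d10 and 201 on d14, so that the first and last arrays were the lowest. The log2 ratio was 1.09 at d3 (2.13-fold), 0.90 at d5 and 0.07 at d14. It was the only one of the 10 genes at least 2-fold above d14 on some day, at d3 (2.02-fold). From d5 to d7 it was lower by 0.50, and 0.686% of kept genes made a step as large. The mean of d7, d10 and d14 minus that of d1, d3 and d5 was -0.60 for Col8a1 and 99.8% of kept genes had a higher value. For Col1a1 it was 0.53, and 0.116% of kept genes had a higher one, so these chains lay at opposite ends of all genes.

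Macrophage markers were also high on the early days. Their summed intensity over 8 measured genes was 1.56-fold that of d0 at d1, 1.48-fold at d3, 1.26-fold at d5, 0.919-fold at d7, 1.22-fold at d10 and 0.876-fold at d14, so that it was higher again at d10, where Col8a1 was not. Cd68 made up 326.5 of 3106 at d0 and 1345.5 of 4839 at d1, so the d1 height of that sum rests largely on this row. The median log2 ratio of the 7 kept markers was 0.40, 0.37, 0.31, -0.09, 0.26 and -0.05 from d1 to d14. That of all kept genes lay between 0.05 and 0.10. None of these macrophage markers is listed at 0 on any array, and their part in the Col8a1 course was not tested. Smooth muscle and pericyte markers, the cells of vessel walls, summed to between 0.989-fold (d5) and 1.08-fold (d3). Acta2 and Rgs5, with intensities of 2060 and 1905 at d0, weighed most in that sum, which was 4965 at d0. The median log2 ratio of the 6 genes was 0.31, 0.23, 0.04, 0.15, 0.26 and 0.14 from d1 to d14. At d1, 5 of the 6 were above d0, as were 70.9% of all kept genes.

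**Figure D2:**
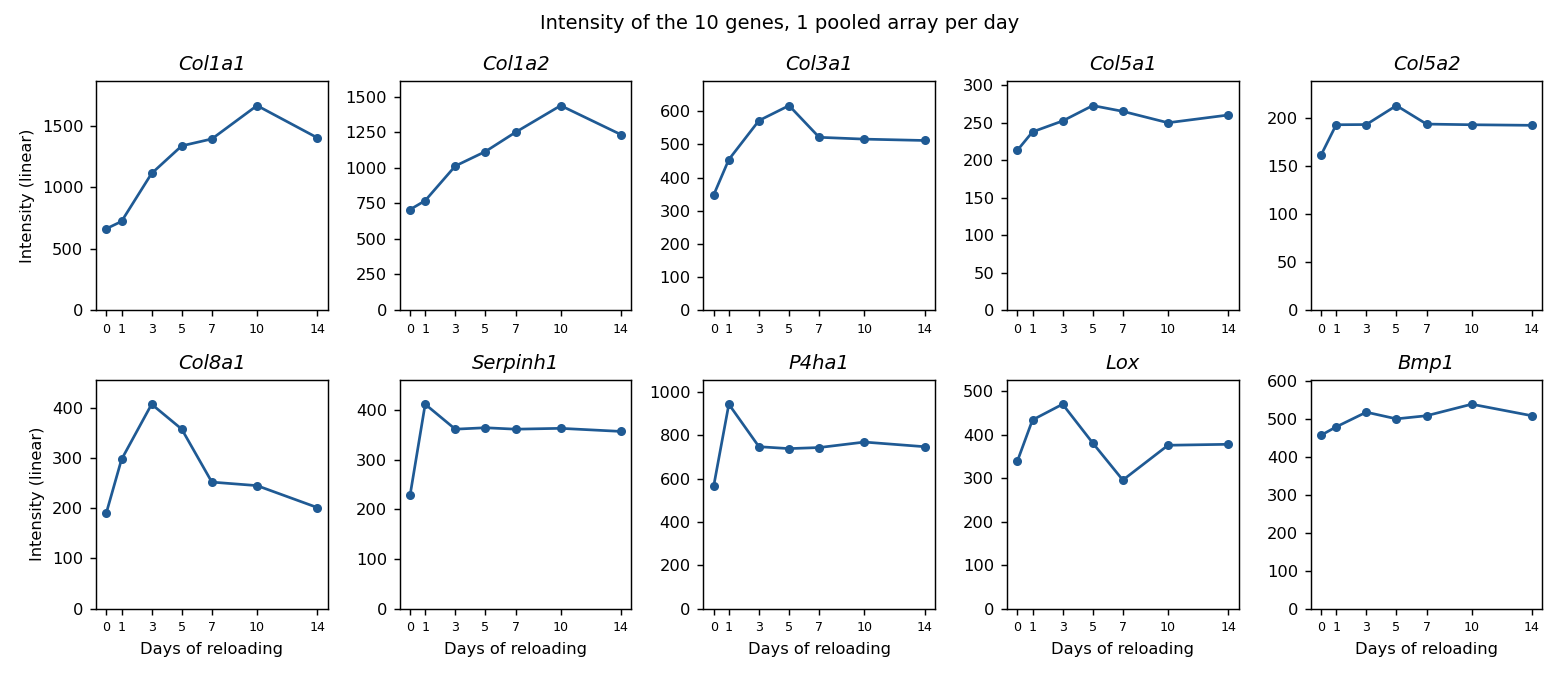
Intensity on a linear scale from 0 against days of reloading for each of the 10 genes, 1 pooled array per point, with an axis of its own for each gene. Serpinh1 and P4ha1 are highest at d1, Col8a1 and Lox at d3, the Col3a1, Col5a1 and Col5a2 chains at d5, and the type I chains and Bmp1 at d10.

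Among the proteins of the endoplasmic reticulum, Serpinh1 and P4ha1 were highest after 1 day and then level. Serpinh1 had intensities of 229 on d0, 412 on d1, 362 on d3, 364.5 on d5, 362 on d7, 363 on d10 and 357 on d14. Its log2 ratio was 0.85 at d1 (1.80-fold) and 0.64 to 0.67 on the other days, with no value between that of d0 and this plateau. P4ha1 had 568 at d0, 944 at d1 (log2 ratio 0.73) and 739 to 769 from d3 to d14, with the same intensity at d3 and d14. Against d14, Serpinh1 stood at 0.21 and P4ha1 at 0.34 at d1 and both within 0.05 of 0 from d3 to d10, so apart from d1 their difference lay between d0 and the later arrays. Both were thus at their highest when the type I chains were 1.09-fold above d0.

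The 2 extracellular enzymes differed from each other. Lox had intensities of 339.5 on d0, 434 on d1, 470 on d3, 381 on d5, 295.5 on d7, 375.5 on d10 and 378 on d14. Its log2 ratio was 0.47 at d3 and -0.20 at d7, its lowest array. The 9 other genes were lowest at d0, as were 39.4% of kept genes. Bmp1 had 457.5 at d0, 479, 518, 501, 509, 539 and 509 afterwards, and its highest log2 ratio was 0.24 at d10. On that day 23.1% of kept genes had a higher ratio, so Bmp1 was not set apart from the bulk of genes.

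**Figure D3:**
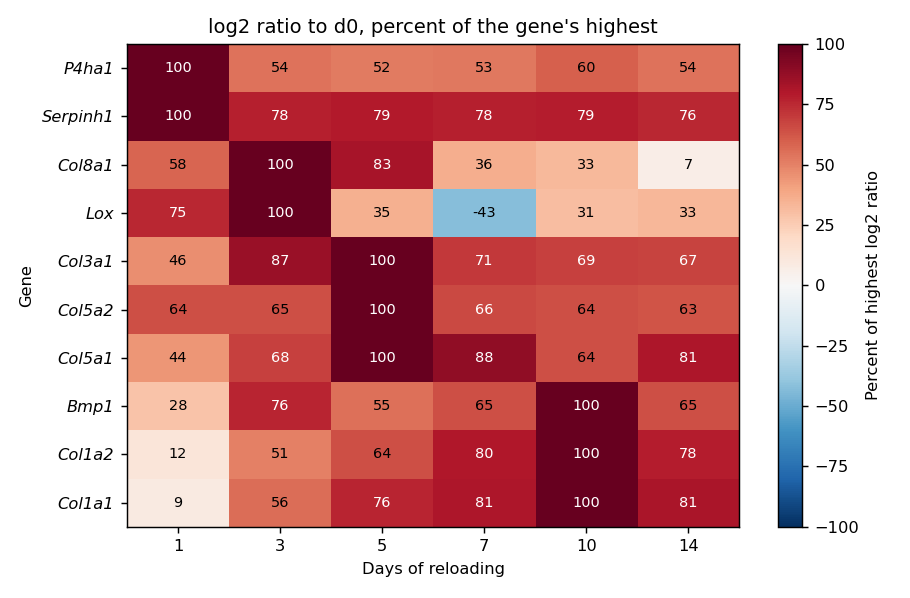
Log2 ratio to d0 of each gene on each later day, as a percent of that gene's highest ratio (100 in its highest day's cell), genes sorted by their highest day. The highest day moves from d1 (P4ha1, Serpinh1) to d10 (Bmp1, Col1a2, Col1a1), and Lox is the only gene with a negative cell (-42.7 at d7).

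Counted together, 10 of 10 genes were above d0 on each later day but d7, when 9 were. Of all kept genes, 70.9% were above d0 on d1, 65.5% on d3, 61.1% on d5, 66.0% on d7, 72.2% on d10 and 71.3% on d14, so this count says little of the 10. At least 2-fold above d0 were 0 of the 10 at d1 (0.653% of kept genes), 1 at d3 (Col8a1; 0.413%), 1 at d5 (Col1a1; 0.182%) and 1 at d7 (Col1a1; 0.190%). There were 2 at d10 (Col1a1 and, except under quantile normalization, Col1a2; 0.438%) and 1 at d14 (Col1a1; 0.0661%). None was 2-fold below d0 on any day. Of the 12102 kept genes only 34 (d3) to 45 (d1) were on a given day, so this says little of the 10. Over all days 3 of the 10 passed 2-fold against d0, 2 of them with the d10 array left out of the count, a setting chosen after the values were seen, and 1 of them (Col8a1) when d14 was the reference. The share of all kept genes past 2-fold on any day was not computed, so these counts over all days have no background beside them. The median log2 ratio of the 10 was 0.30 on d1, 0.49 on d3, 0.53 on d5, 0.39 on d7, 0.40 on d10 and 0.34 on d14. The median of all kept genes lay between 0.05 and 0.10. Against d14 the median of the 10 was -0.34 at d0 and between -0.04 and 0.03 on the other days.

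**Figure D4:**
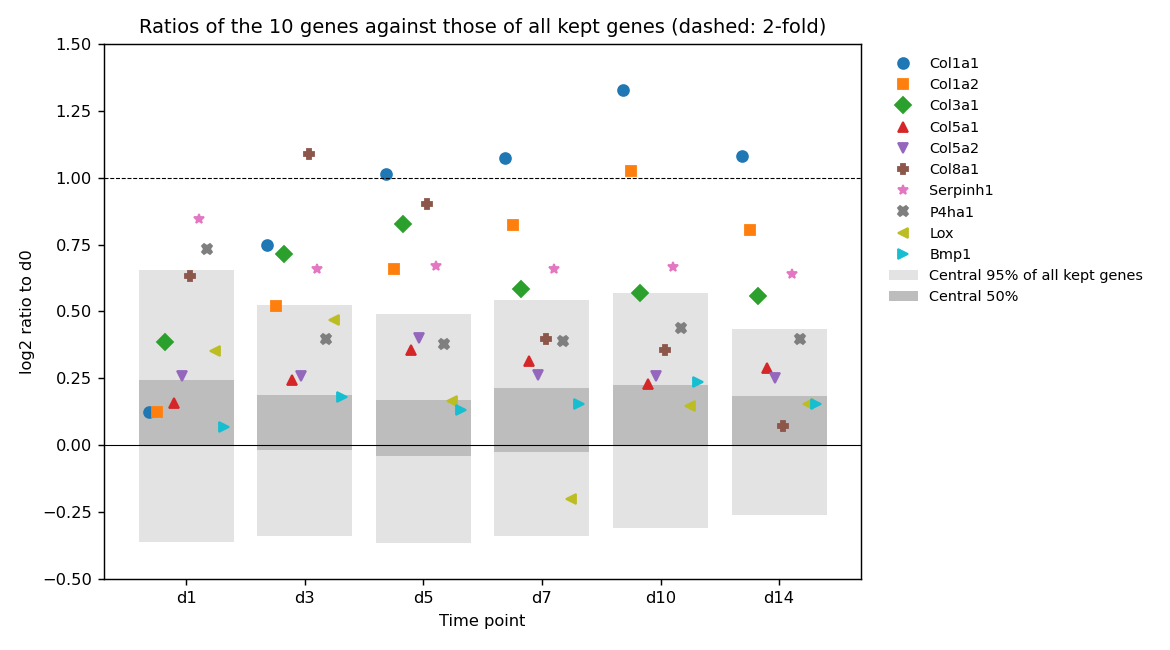
Log2 ratio to d0 of the 10 genes (symbols) on each later day, over the central 95% (light) and the central 50% (dark) of the 12102 kept genes; the dashed line marks 2-fold. Col1a1 is above the light band from d3 on and inside the dark band at d1 (0.12), while Bmp1 stays within the light band on all 6 days.

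A trend over the days was tested for every kept gene with limma, as the slope of log2 intensity on log2(day + 1). At a Benjamini-Hochberg adjusted p of 0.05, 0 of 12102 genes passed (0%), the 10 included; 1288 had an unadjusted p under 0.05, and 5 of the 10 genes did. The largest slopes of the 10 were those of Col1a1, 0.35 ± 0.04 (SE) per doubling of day + 1 with a limma adjusted p of 0.147, and Col1a2, 0.26 ± 0.03 (limma adjusted p 0.147). Col3a1 had 0.13 ± 0.05 (limma adjusted p 0.427). With d0 left out, 43 genes passed (0.355%) and none of the 10 did. The Col1a1 slope was then 0.37 ± 0.07 (limma adjusted p 0.0967) and the Col1a2 slope 0.27 ± 0.05 (limma adjusted p 0.0915). Those of Col3a1 and Col8a1 were 0.03 ± 0.06 (limma adjusted p 0.921) and -0.24 ± 0.11 (limma adjusted p 0.406). The slopes of Col1a1 and Col1a2 were thus nearly the same with and without d0, whereas that of Col3a1 was not.

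Other genes of collagen synthesis and assembly were taken from 8 lists of measured genes. Only their kept genes were fitted and counted. No kept gene of these lists passed the limma trend over 7 arrays or without d0. Outside the fibril binders no kept gene was 2-fold above or below d0 on any day. The 6 other fibrillar chains, those of cartilage types among them, had a median log2 ratio of 0.11 at d10, with Col5a3 at 0.13 and Col11a1 at 0.13, and 0.16 at d3. At d7 their median was higher, 0.32, against 0.08 for all kept genes, with Col27a1 at 0.60. On that day 6 of 6 were above d0, as were 66.0% of all kept genes. Among 13 kept collagens of fibril surfaces and beaded filaments the median was 0.16 at d3 and at d5, 0.28 at d7 and 0.06 at d10. On each of d3, d5 and d7, 12 were higher and 0 lower than d0. Of all kept genes, 65.5%, 61.1% and 66.0% were higher on these days. At d10, 7 of the 13 were higher and 6 lower, where 72.2% of all kept genes were higher. The 3 main chains of type VI, the beaded filament collagen that surrounds muscle fibres, were higher than d0 on all 6 days: Col6a1 stood at 0.17 at d1 and 0.60 at d10, Col6a2 at 0.37 and 0.77, and Col6a3 at 0.50 and 0.55. Col12a1, a fibril surface collagen of tendon and muscle fascia, stood at -0.10 at d1 and 0.58 at d10. Of the other short-chain network collagens only Col10a1 was kept. It had an intensity of 141.4 on the d7 array and 82.0 to 120.5 on the others, below the array medians. Col10a1 was thus kept through d7 alone, and no ratio is read from it.

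The 14 kept collagen enzymes and chaperones of the endoplasmic reticulum had a median of 0.175 at d1 and 0.25 at d10. At d1, 14 of 14 were above d0, as were 70.9% of all kept genes. P3h2, a prolyl hydroxylase of the third carbon position, was highest at d1 (0.85), as P4ha1 was, and stood at 0.57 at d10. Plod3, a lysyl hydroxylase, stood at 0.49 at d1 and 0.37 at d10, and Ppib, the proline isomerase of the collagen fold, at 0.45 at d3 and 0.50 at d5. The 9 kept genes of collagen export had a median of 0.21 at d1, 0.07 at d3 and 0.27 at d10, with the coat protein Sec24d at 0.46, 0.28 and 0.48. Creb3l1, a transcription factor known to act on type I collagen genes, stood at 0.02 at d1, -0.17 at d3, 0.24 at d7 and 0.43 at d10.

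Of the propeptide proteases and enhancers, 4 were kept, and their median was 0.25 at d10. Pcolce, which enhances Bmp1, stood at 0.54 at d3 and 0.36 at d10, and the N-propeptide protease Adamts14 at 0.45 and 0.40. The 3 kept relatives of Lox had medians of 0.32 at d3, 0.32 at d7 and 0.34 at d10. None of them was below d0 at d7, where Lox was, with Loxl1 at 0.42, Loxl4 at 0.32 and Loxl3 at 0.23.

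Fibril binders and proteoglycans varied most. Their 15 kept genes had a median of 0.08 at d3 and 0.17 at d10. At d10, 2 were at least 2-fold above d0, as were 0.438% of all kept genes. Postn, which binds collagen and Bmp1, stood at 2.45 at d3, 1.09 at d7 and 1.72 at d10. Fn1, the fibronectin on which fibrils assemble, stood at 0.34 at d1 and 1.16 at d10. The small leucine-rich proteoglycans Bgn and Lum were highest at d3 (0.99) and d5 (0.98), and Kera, another of them, went from -0.36 at d1 to 0.97 at d10. Sparc, a collagen-binding glycoprotein, stood at 0.38 at d1 and 0.68 at d10.

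Some markers of other collagen-making cells moved with the type I chains on some days. Tendon markers, 9 of 9 measured and kept, had a median of -0.18 at d1 and 0.42 at d10 and d14, and their summed intensity was 10371 at d1 and 13910 at d10, the lowest and highest of the 7 arrays. Tnmd, a membrane protein of tendon cells, stood at -0.52 at d1, 0.29 at d5, 0.70 at d10 and 0.61 at d14, and Ptx4 at 1.17 at d10. Like Tnmd, Chad, Kera, Fmod and Mkx were below d0 at d1 and above it at d10. Chad went from -0.39 to 0.35, Kera from -0.36 to 0.97, Fmod from -0.22 to 0.10 and Mkx from -0.18 to 0.20. Scx, Thbs4 and Egr1 did not follow this course. Scx stood at 0.64 at d1 and 0.42 at d10, Thbs4 at 0.51 and 0.59, and Egr1 at 0.35 and 0.21. At d1, 4 of the 9 were above d0 and 5 below, where 70.9% of all kept genes were above. Of 12 markers of bone-forming cells, which make type I collagen, 7 were measured and 3 kept. The summed intensity of the 7 was 703 at d0, 756 to 871 from d1 to d7 and at d14, and 1173 at d10, where Alpl stood at 0.61. The bone protein gene Ibsp had an intensity of 314 on the d10 array and 45.1 to 76.0 on the others, below the array medians. It was thus kept through d10 alone and no ratio is read from it. The sum of the 7 includes Ibsp, which made up 314 of 1173 at d10 and 45.1 of 703 at d0. The d10 height of that sum therefore rests largely on this row. The median log2 ratio of all 7 measured bone markers at d10 was 0.16. Osteoclast markers were 1.69-fold and granule genes of neutrophils 6.05-fold above d0 in sum on that array. No marker of these lists is listed at 0. Col1a1 was 2.10-fold above d0 at d7 and 2.12-fold at d14, when the bone marker sum was 1.21-fold and 1.24-fold and the tendon marker sum 1.22-fold and 1.28-fold that of d0. The part of tendon and bone cells in the type I course was not tested.

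Fibroblast and fibro-adipogenic markers differed little: the sum of 11 genes lay between 0.968-fold (d5) and 1.02-fold (d10) of d0, and of the 10 kept 6 were above and 4 below d0 at d10. Their median log2 ratio was 0.09 on that day, against 0.10 for all kept genes, of which 72.2% were above d0. The largest differences at d10 were those of Fap at 0.47, Thy1 at 0.39 and Pdgfrb at 0.28, while Gli1 stood at -0.26 and Gsn at -0.24. Cartilage markers summed to at most 1.27-fold, at d7, and 5 of 9 were kept. At d10, 3 of the 5 were above d0 and 2 below, with a median log2 ratio of 0.10. Clec3a stood at 1.66 on that day, with an intensity of 106.2 at d0, below the array median, and 336.4 at d10. It was the 1 marker of the 5 at least 2-fold above d0, as were 0.438% of all kept genes. Sox9 stood at 0.27 and Col9a1 at -0.24. Muscle fibre markers summed to between 0.974-fold (d1) and 1.06-fold (d10). Within this list Myh2 stood at 1.08 at d3 and 1.07 at d10, Myh7 at 1.73 and 0.89, and Tnnt1 at 0.72 and 0.79. The median of the 9 genes was -0.004 at d3 and 0.05 at d10. Of the 9, 5 were below d0 at d3 and 3 at d10, where 65.5% and 72.2% of all kept genes were above it.

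**Figure D5:**
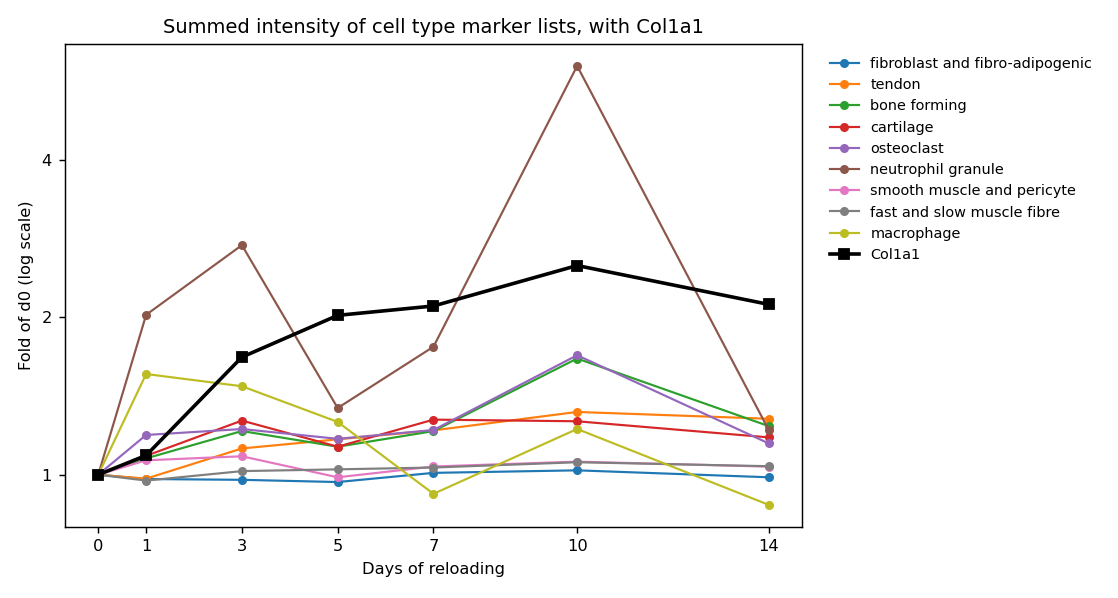
Summed intensity of each marker list as a fold of d0, on a log axis, against days of reloading, with Col1a1 in black for comparison. The sums of bone-forming, osteoclast and neutrophil markers are highest at d10 (1.67-fold, 1.69-fold and 6.05-fold), whereas the fibroblast sum stays within 0.968-fold to 1.02-fold. The bone-forming sum at d10 rests largely on Ibsp, with an intensity of 45.1 at d0 and 314 at d10.

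The genes whose course was most like that of Col1a1 or Col3a1 were named by Pearson r across the 7 arrays among 2105 candidates, as a description over arrays that share 1 d0 pool. After Col1a2 the nearest to Col1a1 were the ketone body enzyme Oxct1 (r 0.98), the secreted scavenger receptor protein Ssc5d (0.98), Col6a1 (0.98), Sh3bgr (0.97) and the mitochondrial creatine kinase Ckmt2 (0.97). Those nearest to Col3a1 were Myoz2, a Z-disc protein of slow fibres (0.99), the secreted glycoprotein Fstl1 (0.98), the sulfatase Arsi (0.98), the sarcolemmal protein Sspn (0.97), the receptor Gpr153 (0.97) and the coenzyme Q enzyme Coq3 (0.97). No gene was in both sets, but each set holds only a few of the 2105 candidates, and the overlap of such short lists has no background here. The lack of a shared gene therefore says little about how far the Col1a1 and Col3a1 courses differ. Col3a1 itself took place 208 among the genes most like Col1a1 (r 0.75), and without d0 the r of this pair was 0.47. Serpinh1 had an r of 0.46 with Col1a1 over 7 arrays and -0.88 without d0, so that the sign of their relation depends on the d0 array. The second value rests largely on d1, where Serpinh1 had a log2 ratio of 0.85, against 0.64 to 0.67 from d3 on.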

How the data were processed

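The authors deposited linear intensities, 1 for each row and array, which had been normalized between arrays before deposit. The submitters' processing notes name Partek but no step, and the normalization method was not stated in the labels. Rows were named through the platform's annotation table (21789 of 35556 with 1 symbol); of several rows for a gene, the one highest on average in log2 was used. No pseudocount was added. A gene was kept if on any array it lay at or above that array's median row.

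The 10 genes and all lists were chosen with earlier results of these data known. Named besides them were, of each pathway list, up to 4 kept genes with the largest absolute log2 ratio at d10 and up to 2 more at d3, up to 3 of each marker list at d10, and the 6 genes of highest r with Col1a1 and with Col3a1, predicted genes left out. Acta1, as a check of the tissue, was named outside this rule. So were Gli1, Gsn, Scx, Thbs4, Egr1, Chad, Fmod, Mkx, Acta2 and Rgs5, chosen after their values were seen.

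The trend over days used limma (version 3.58.1, R 4.3.3) with lmFit and eBayes, an intensity trend and Benjamini-Hochberg adjustment over 12102 genes, and was tested on simulated data. Other steps, the permutations included, ran in Python 3.11.15 with pandas 2.3.3 and numpy 2.4.6. Ranks for rho and the adjustment of the permutation p-values came from scipy 1.17.1, and plots from matplotlib 3.10.9. Alternatives were other normalizations, a pseudocount of 16, the mean of a gene's rows, other filters, folds, day scales and references, and each time point left out.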

Additional observations from a re-analysis of the deposited data

How the results depend on the processing

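No paired analysis was possible because each time point is 1 array and the labels give no replicate numbers. The 20 log2 ratios of the 10 genes at d3 and d10 moved by less than 0.105, the robust SD over genes between d7 and d14, under quantile normalization, equal array medians, a pseudocount of 16 and the mean of a gene's rows. With d14 as reference the medians of the 10 genes from d1 to d14 were -0.0407, 0.0120, 0.0205, 0.0139, 0.0328 and 0, and with the mean of the 6 other arrays -0.0280, 0.0383, 0.1295, 0.05, 0.0557 and 0.0343; the mean in place of the median gave 0.52 at d10. The count of genes past 2-fold, 3 against d0, was 2 under quantile normalization, where Col1a2 stood at 0.96 at d10, and 1 against d14, 0 against the mean of the other arrays, 6 at 1.5-fold and 0 at 3-fold. The trend fit passed 1 gene with equal medians, 1 with the filter at percentile 75, and 0 to 43 with a time point left out (43 without d0); 0 of the 10 genes passed in all of these. The Col8a1 slope, -0.0012 over 7 arrays, was 0.0002 with equal medians and ran from -0.24 (without d0) to 0.0925 (without d14). The r of Col1a1 minus Col3a1 with time ran from 0.81 to 0.93 with a time point left out, with exact permutation p-values of 0.00833 (without d0) to 0.05 (without d7). For Col1a2 minus Col3a1 it ran from 0.55 to 0.85, past 0.05 only without d0 (exact permutation p = 0.0264). The table gives no detection call, so which of these genes lay above background on an array is unknown.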
